A study of Mus musculus with 12 samples.

Results

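The E protein genes Tcf3, Tcf12 and Tcf4 and the Id genes Id1, Id2 and Id3 were followed in 12 mouse pre-B cell lines. They were chosen as the rows of the count table whose Ensembl identifier maps to these symbols, and all 6 were found among 51826 genes. Bone marrow of 2 C57BL/6 mice was cultured for 7 days with interleukin 7 (IL7), the cytokine on which mouse pre-B cells depend. From each mouse, cells were next transduced with the retroviral vector pMIG, either empty (EV, 3 lines per mouse) or with BCR-ABL1 (3 lines per mouse), the kinase made by the Philadelphia translocation. All lines were kept for 48 h with IL7. BCR-ABL1 lines then grew for 1 week in its absence, while EV lines stayed in IL7 and were sorted for GFP. IL7 withdrawal and BCR-ABL1 coincide in all lines, and sorting for GFP is given for EV lines alone. The parts of BCR-ABL1, IL7 withdrawal and sorting in a difference cannot be told apart. Lines are named by mouse and letter, so that EV 2C is an EV line of mouse 2. The methods of the study name its wild-type marrow donors as female, and their age is not given in the sources used here.

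E proteins are basic helix-loop-helix transcription factors that bind, as dimers, to the E-box, a short DNA element of the form CANNTG. Tcf3 encodes E12 and E47, Tcf12 encodes HEB and Tcf4 encodes E2-2, and together with Ebf1 and Pax5 the E proteins set up the B cell program in early precursors. Id proteins carry the helix-loop-helix but lack the basic region that contacts DNA, so that an E protein paired with an Id protein does not bind its E-box. Id genes are known targets of bone morphogenetic protein (BMP) signaling through SMAD proteins, and Id3 also of EGR factors downstream of antigen receptors. All values given here are of RNA per gene. They do not separate E12 from E47 and say nothing of protein.

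By the GENCODE M21 annotation of GRCm38, all 6 are protein-coding genes. Tcf3 (ENSMUSG00000020167) lies on chromosome 10 from 80409514 to 80433647 on the minus strand. Tcf12 (ENSMUSG00000032228) lies on chromosome 9 from 71842688 to 72111871 on the minus strand, and Tcf4 (ENSMUSG00000053477) on chromosome 18 from 69343356 to 69689079 on the plus strand. Id1 (ENSMUSG00000042745) lies on chromosome 2 from 152736251 to 152737410 and Id3 (ENSMUSG00000007872) on chromosome 4 from 136143497 to 136145755, both on the plus strand. Id2 (ENSMUSG00000020644) lies on chromosome 12 from 25093799 to 25097140 on the minus strand. The Id genes are compact, with 1160 bases of merged exon for Id1, 2438 for Id2 and 1791 for Id3, against 4039 for Tcf3, 15529 for Tcf12 and 27382 for Tcf4. No exon of another annotated gene overlaps an exon of these genes.

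Total counts on genes were between 34791011 and 66011225 per line. Counts are given as CPM, counts scaled to a common library size by TMM. The line EV 2A stood apart: it had the lowest total and a count in 36123 genes, against 20235 to 28517 in the other lines, and 5033 genes were seen in that line only. By its counts per gene, EV 2C lay furthest from the other EV lines of its mouse, with the values given under the processing. The labels name the cells pro- or pre-B cells, and all 10 B lineage markers examined passed the filter on low counts. EV lines had 7493 to 10963 CPM over these markers, and BCR-ABL1 lines 6065 to 6857 CPM. The highest levels were those of Ighm (2228 to 3582 CPM in EV, 1232.5 to 1445 CPM in BCR-ABL1 lines) and Cd24a (2322 to 3648 and 1826 to 2214 CPM). The median log2 fold change of the 10 markers was -0.10. Of the 10, only Ighm was called (lower, FDR = 0.00129), where 5.99% of all tested genes were higher and 6.49% lower. For 2 of the 10, Ighm and Cd24a, every BCR-ABL1 line was below every EV line, as for 13.5% of all tested genes. The lines of each condition are described as biological triplicates of independent experiments, yet lines of 1 mouse share their marrow, so that p-values rest on the spread between lines of only 2 mice. As these are bulk samples, fewer cells of a type and less RNA per cell cannot be told apart.

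Because E proteins act at E-boxes, stretches before RefSeq starts of these genes were read for the letters CANNTG, a form that both strands share. They are RefSeq windows of 250 bases before a start on GRCm38.p6, of which 3 are shown without bases that GENCODE places in an exon of the gene. Windows were matched for Tcf3, Tcf12, Id2 and Id3, not for Id1 and Tcf4. Tcf3 and Id2 have 1 window each in the table, and for Tcf12 the first of 3 is shown. The stretches of Tcf3 and Tcf12 lie just outside the GENCODE span of the gene. That of Id2 lies inside it, between annotated exons, as the RefSeq start is downstream of the 5′ end of the GENCODE span, and 161 of its 250 bases are exonic and left out. Capitals mark CANNTG, and all lie on the minus strand.
Tcf3, 238 bases at chr10:80433648-80433885: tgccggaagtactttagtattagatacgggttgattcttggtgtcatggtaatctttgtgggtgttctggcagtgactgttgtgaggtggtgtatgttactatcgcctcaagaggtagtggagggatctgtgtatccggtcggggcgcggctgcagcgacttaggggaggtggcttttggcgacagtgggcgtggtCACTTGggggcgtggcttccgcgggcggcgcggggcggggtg
Tcf12, 198 bases at chr9:72111872-72112069: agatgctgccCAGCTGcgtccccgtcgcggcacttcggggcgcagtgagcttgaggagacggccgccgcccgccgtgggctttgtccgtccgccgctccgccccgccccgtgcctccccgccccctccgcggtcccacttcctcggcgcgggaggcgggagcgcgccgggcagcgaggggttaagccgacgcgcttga
Id2, 89 bases at chr12:25096254-25096342: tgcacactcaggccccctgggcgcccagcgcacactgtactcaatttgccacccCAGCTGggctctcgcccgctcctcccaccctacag

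Each of the 3 stretches holds 1 CANNTG, read CACTTG at Tcf3 and CAGCTG at Tcf12 and Id2. CANNTG was found in 66.2% of the 32851 RefSeq windows of 250 bases and CAGCTG, which is counted within CANNTG, in 13% of them. The window of Id3 holds no CANNTG, but all of its 250 bases are exonic in GENCODE, so that no stretch outside its exons was read. These letters describe the windows, and no binding was measured here.

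Per kilobase of merged exon, the order of levels was the same in both conditions. Tcf3 came first with 106 ± 17.0 CPM per kb in EV and 85.1 ± 2.45 in BCR-ABL1 lines (SD, n = 6 each). Id3, the most abundant inhibitor, followed with 59.3 ± 10.4 and 47.1 ± 8.47 CPM per kb. Tcf12 had 10.8 ± 0.506 and 9.71 ± 0.155, Id2 had 7.13 ± 5.49 and 3.93 ± 0.990, and Tcf4 had 3.66 ± 1.36 and 3.07 ± 0.427 CPM per kb. Id1 was last with 0.379 ± 0.288 CPM per kb in EV and 1.69 ± 0.685 in BCR-ABL1 lines. The ranges of Tcf12 and Id2 overlapped in EV lines, those of Id2 and Tcf4 in both conditions, and those of Tcf4 and Id1 in BCR-ABL1 lines, whereas the other neighbors in this order were apart. Divided by the length of the APPRIS principal transcript instead, Tcf4 stood above Id2 by the means of both conditions. Their ranges were then apart in BCR-ABL1 lines and overlapped in EV lines, where EV 2A had 19.1 CPM per kb for Id2 and 16.1 for Tcf4.

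**Figure D1:**
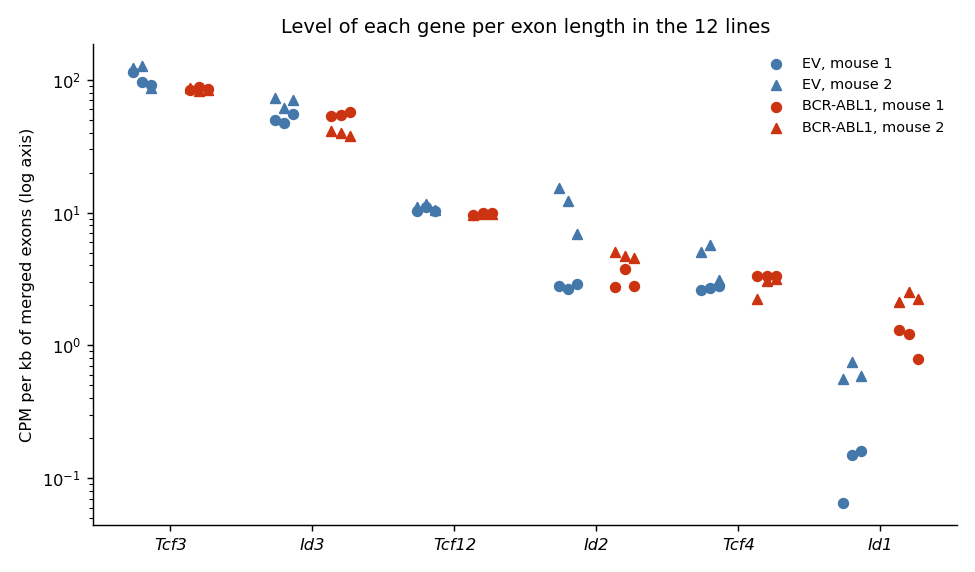
Level of each gene per exon length. The y axis is CPM per kb of merged exon on a log axis, and each point is 1 of 12 lines (circles, mouse 1; triangles, mouse 2; blue, EV; red, BCR-ABL1). Tcf3 lies on top in every line, and Id1 shows the widest gap between the colors.

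The question put to each gene was whether its level differs between BCR-ABL1 and EV lines by more than 1.5-fold, by edgeR's glmTreat on the quasi-likelihood fit over 15038 tested genes. The threshold was an FDR, the p adjusted by Benjamini-Hochberg, under 0.05. Of the 6 genes, all of which were tested, only Id1 was called higher and 0 were called lower. By DESeq2, by edgeR's likelihood ratio fit and by edgeR's main test at an unadjusted p under 0.05, 1 was again higher and 0 were lower. Of all tested genes, 5.99% were called higher and 6.49% lower, and the median of all log2 fold changes was -0.02. Permutation tests below are two-sided exact tests on mean log2 CPM over the 924 labelings of the 12 lines, unless labels were exchanged within each mouse only (400 labelings). The permutation within each mouse gave p = 0.005 for Id1, Tcf3 and Tcf12 and p = 0.37 for Tcf4.

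Id1 rose from a level close to the limit of the counts. EV lines 1A, 1B and 1C had 0.0753, 0.173 and 0.184 CPM (4, 12 and 12 counts), and EV lines 2A, 2B and 2C had 0.644, 0.874 and 0.685 CPM (21, 44 and 38 counts). BCR-ABL1 lines 1A, 1B and 1C had 1.51, 1.42 and 0.909 CPM (89, 68 and 40 counts), and BCR-ABL1 lines 2A, 2B and 2C had 2.45, 2.93 and 2.57 CPM (127, 193 and 124 counts). All 6 BCR-ABL1 lines were above all EV lines, a separation in this direction seen for 12.1% of all tested genes, and within each condition mouse 2 was above mouse 1. Id1 was 4.47-fold higher in BCR-ABL1 lines by the means, with a log2 fold change of 2.18 (SE 0.56, FDR = 0.0295, permutation p = 0.00216, the smallest that these labelings can give). The call was made in the lines of mouse 1 alone (log2 fold change 3.11, FDR = 5.22e-05, where 16.3% of genes were higher) and in those of mouse 2 alone (1.86, FDR = 0.0122, 3.99% of genes higher). With mouse as a replicate block it was 2.41 (FDR = 0.000292, with 7.49% of genes higher and 7.18% lower). Without the block, the FDR was between 0.0568 and 0.0616 when EV 1B, EV 1C, BCR-ABL1 2A, BCR-ABL1 2B or BCR-ABL1 2C was left out. Id1 was not tested where a CPM of 1 in 6 lines was asked for. In the main test it passed the filter on low counts through the BCR-ABL1 lines, where it is high. Its call therefore cannot show a direction for the Id genes. With no filter on low counts the log2 fold change of Id1 was 2.24 (FDR = 0.0210).

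Id3 is the main Id transcript of these cells. EV lines had 89.3, 84.4 and 99.3 CPM in mouse 1 and 129.6, 109 and 125 CPM in mouse 2. BCR-ABL1 lines had 95.4, 96.5 and 102 CPM in mouse 1 and 73.9, 71.2 and 67.3 CPM in mouse 2. The conditions overlapped over all lines, where the log2 fold change was -0.33 (SE 0.15, FDR = 1, permutation p = 0.0498, and p = 0.09 when labels were exchanged within each mouse only). In mouse 2 all 3 BCR-ABL1 lines lay below the EV lines, with a log2 difference of -0.77 (FDR = 0.160 by glmTreat), whereas in mouse 1 the difference was 0.12 and the lines overlapped. Id3 was thus called in neither mouse alone.

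Id2, an inhibitor known for its role in NK and innate lymphoid cells, was low in mouse 1 whatever the condition. Its EV lines had 6.87, 6.45 and 7.05 CPM and its BCR-ABL1 lines 6.65, 9.13 and 6.86 CPM. The EV lines of mouse 2 had 37.5, 29.7 and 16.7 CPM, and the BCR-ABL1 lines of mouse 2 had 12.2, 11.5 and 11.1 CPM. The 3 EV lines of mouse 2 were thus above all other lines, with EV 2A, the line that stood apart, the highest. The log2 fold change was -0.86 over all lines (SE 0.49, FDR = 0.526, permutation p = 0.305, and p = 0.095 when labels were exchanged within each mouse only). It was 0.16 in mouse 1 and -1.25 in mouse 2 (FDR = 0.114). The value over all lines moved to -0.49 without EV 2A and to -0.56 with mouse as a replicate block. The NK markers Ncr1, Nkg7 and Il2rb had at most 2, 1 and 10 counts in any line, the last of these in EV 2A. The further NK marker Klrb1c, like Id2, separated the mice in EV lines, where mouse 1 ranged from 0.0289 to 0.0921 CPM and mouse 2 from 0.797 to 1.07 CPM. Among BCR-ABL1 lines the order was the opposite of that of Id2, with 1.05 to 3.68 CPM for mouse 1 and 0.353 to 0.639 CPM for mouse 2 (interaction FDR = 0.000288). The part of such cells in the Id2 values was not tested.

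Tcf3, the leading E protein gene of B cell precursors, differed between the conditions by less than 1.5-fold. EV lines had 460.2, 388 and 369.7 CPM in mouse 1 and 493, 514 and 351 CPM in mouse 2. BCR-ABL1 lines had 341, 359 and 347 CPM in mouse 1 and 348, 331 and 337 CPM in mouse 2. The BCR-ABL1 lines were close together, and only EV 2C lay within their range. The log2 fold change of -0.32 (SE 0.10) stayed within 1.5-fold (FDR = 1, permutation p = 0.00433). Tested against no change it had an FDR of 0.0158.

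Tcf12 varied least. EV lines had 159.9, 172 and 161 CPM in mouse 1 and 171, 179 and 162 CPM in mouse 2, and BCR-ABL1 lines had 149, 153 and 153 CPM in mouse 1 and 148, 152 and 150.1 CPM in mouse 2. Every BCR-ABL1 line was below every EV line, as for 13.5% of all tested genes. The log2 fold change was -0.15 (SE 0.03, FDR = 1), with a permutation p of 0.00216, and against no change its FDR was 0.0143. Tcf3 and Tcf12 were the 2 members called lower against no change, where 25.9% of all tested genes were lower and 22.5% higher. Id1 was the 1 member called higher by that test (FDR = 0.00609).

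Tcf4, the E protein gene known for its role in plasmacytoid dendritic cells, had differences of opposite sign in the mice. EV lines had 71.6, 74.2 and 76.8 CPM in mouse 1 and 138, 157 and 84.5 CPM in mouse 2. BCR-ABL1 lines had 90.6, 91.2 and 90.8 CPM in mouse 1 and 60.8, 83.8 and 86.5 CPM in mouse 2. In mouse 1 the BCR-ABL1 lines were all above the EV lines, and in mouse 2 EV 2C lay among the BCR-ABL1 lines. The log2 fold change was -0.26 over all lines (SE 0.22, FDR = 1, permutation p = 0.394), 0.30 in mouse 1 and -0.70 in mouse 2 (FDR = 0.578). Tcf4 was called in neither mouse alone. Over all lines the log2 fold change was -0.16 without EV 2A and -0.09 without EV 2B.

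**Figure D2:**
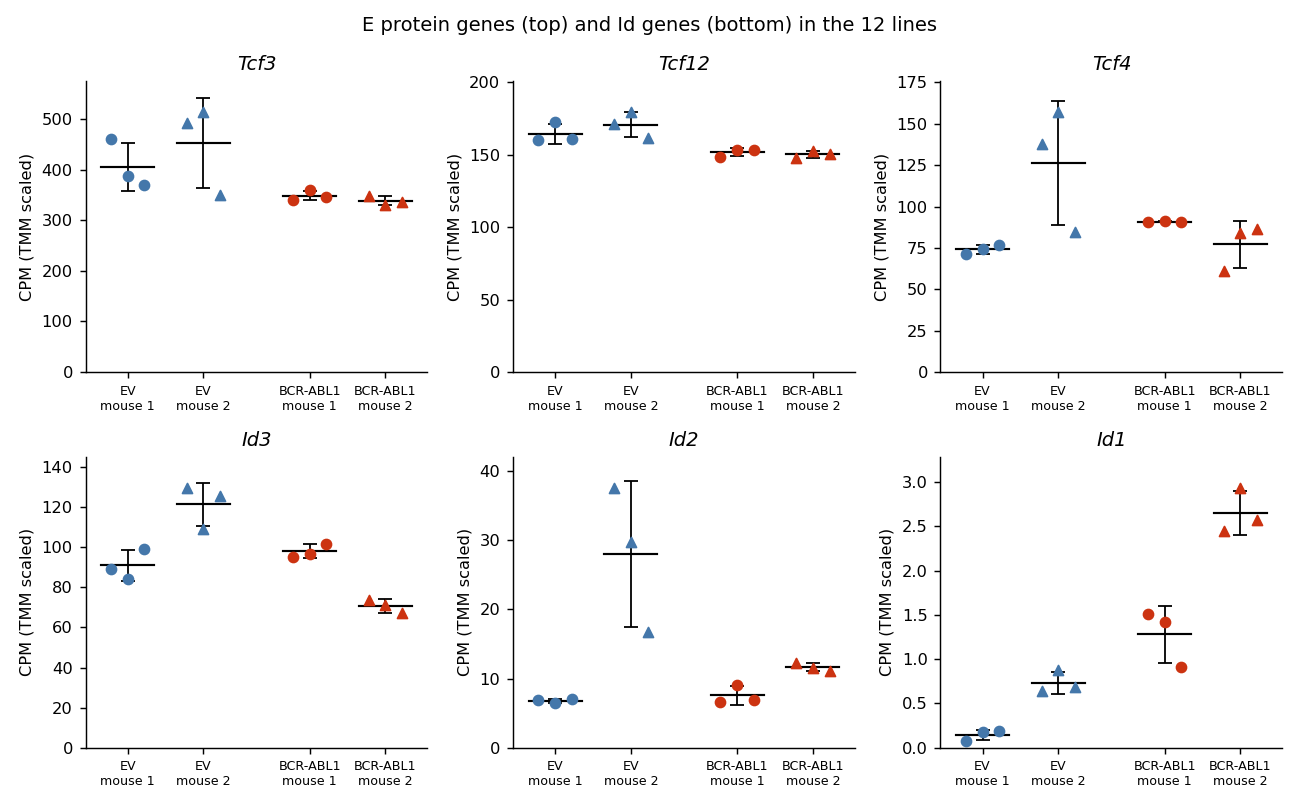
CPM of each gene in the 12 lines. Points are lines (blue, EV; red, BCR-ABL1), horizontal bars are means and error bars SD over the 3 lines of a mouse and condition. Id1 is higher in all BCR-ABL1 lines, Id2 is highest in the EV lines of mouse 2, and Id3 is lowest in the BCR-ABL1 lines of mouse 2.

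Whether the change differs between the mice was tested with edgeR's glmQLFTest as an interaction term of mouse by condition. It was called for 3 of the 6 genes and for 16.9% of all tested genes. The log2 change in mouse 2 minus that in mouse 1 was -0.88 for Id3 (FDR = 0.000654), -1.42 for Id2 (FDR = 0.0149) and -1.01 for Tcf4 (FDR = 0.0283). For Id1 it was -1.26 (FDR = 0.0597), for Tcf3 -0.20 (FDR = 0.554) and for Tcf12 -0.07 (FDR = 0.705). The difference for Id3 and for Id2 was called in all 15 repeats with another normalization, filter or fit or without 1 line, including those without EV 2A (FDR = 0.00174 for Id3 and 0.0297 for Id2). That for Tcf4 was called in 7 of 15 and was lost without any 1 of the lines EV 1A, EV 1B, EV 1C, EV 2A, BCR-ABL1 1A, BCR-ABL1 1B, BCR-ABL1 1C or BCR-ABL1 2A, with an FDR of at most 0.0648. That for Id1 was called in 3 of 15, by the likelihood ratio fit (FDR = 0.0283), without BCR-ABL1 1C (FDR = 0.0399) and without EV 2C. Without EV 2C, 5 of the 6 genes differed between the mice, Id1 (FDR = 0.0319) and Tcf3 (FDR = 0.0438) with them, and so did 36% of all tested genes.

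**Figure D3:**
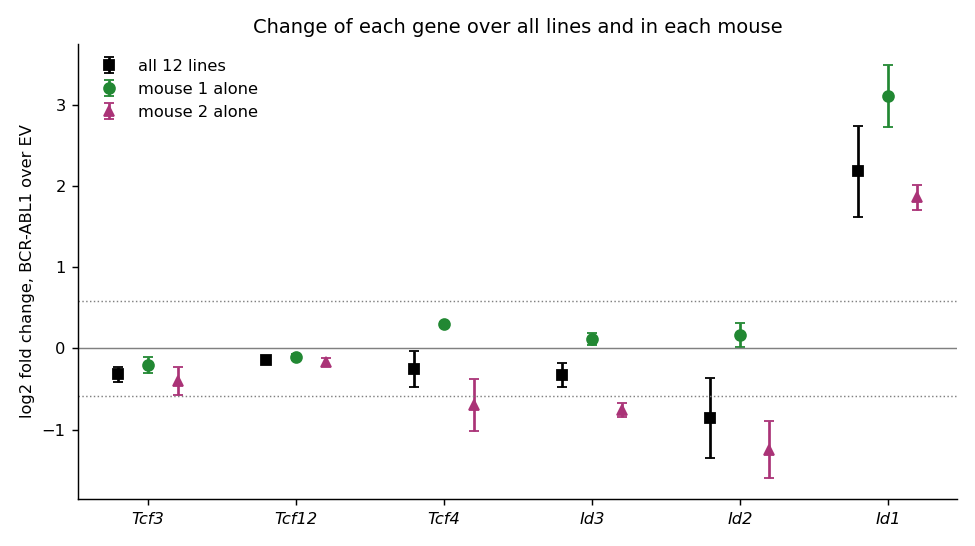
Log2 fold change of BCR-ABL1 over EV for each gene, over all 12 lines (squares) and in the lines of each mouse alone (circles, triangles). Error bars are SE computed over lines on log2 CPM, and dotted lines mark 1.5-fold. Id1 lies above them in both mice, while Id3, Id2 and Tcf4 are above 0 in mouse 1 and below it in mouse 2.

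The balance of E protein to Id transcripts was taken in each line as the sum of Tcf3, Tcf12 and Tcf4 counts over the sum of Id1, Id2 and Id3 counts. It was 7.19, 6.97 and 5.70 in the EV lines and 5.60, 5.64 and 5.39 in the BCR-ABL1 lines of mouse 1. In mouse 2 it was 4.77, 6.08 and 4.18 in EV lines and 6.29, 6.62 and 7.08 in BCR-ABL1 lines. All BCR-ABL1 lines were thus below the EV lines in mouse 1 and above them in mouse 2. Over all lines the balance was 5.82 ± 1.19 in EV and 6.10 ± 0.670 in BCR-ABL1 lines (SD, n = 6 each), and the conditions overlapped. The difference of log2 means, 0.09, turned to -0.71 when mean log2 CPM of the genes were compared in place of summed counts, which weights Id1 like Id3. Without EV 2C it was -0.0012. Within the mice the log2 means differed by -0.25 in mouse 1 (SD 0.18 in EV and 0.036 in BCR-ABL1 lines, n = 3 each) and by 0.43 in mouse 2 (SD 0.27 and 0.086). Divided by exon length, the balance was 1.87 ± 0.409 in EV and 1.88 ± 0.218 in BCR-ABL1 lines. The balance is a score over chosen genes, and no test was made on it.

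Tcf3 gave 58.8% to 66.5% of the E protein counts of a line in EV and 58.3% to 62.5% in BCR-ABL1 lines. Tcf12 gave 21.1% to 27.1% in EV and 25.4% to 26.9% in BCR-ABL1 lines, and Tcf4 gave the rest. Id3 gave 77.2% to 93.2% of the Id counts in EV and 83.1% to 92.9% in BCR-ABL1 lines. The share of Id2 was highest in EV 2A with 22.4% (95% Wilson interval 21.3% to 23.5%) and EV 2B with 21.2%, and lay between 6.26% and 8.53% in the 6 lines of mouse 1. Id1 was the smallest part in every line, from 0.0782% of the Id counts in EV 1A (0.0304% to 0.201%) to 3.43% in BCR-ABL1 2B (2.98% to 3.94%). The sum of Id counts was thus mostly Id3. These intervals hold for counting error alone, as the reads carry no molecular identifiers.

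**Figure D4:**
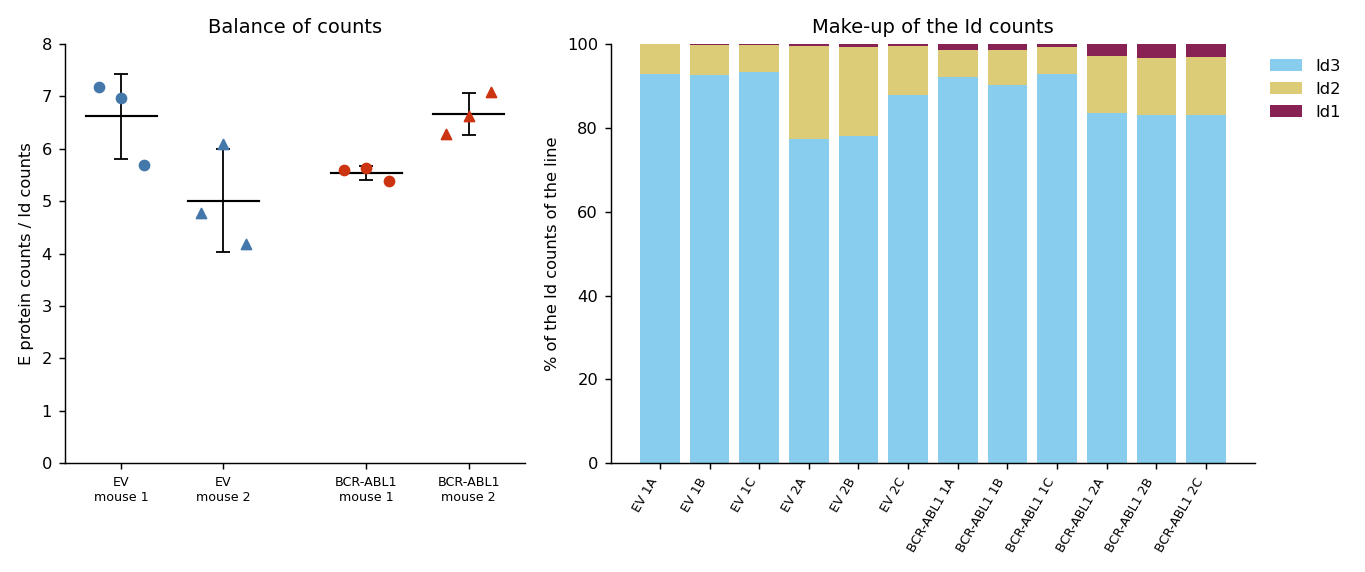
Left, E protein counts over Id counts by line, with mean and SD over the 3 lines of a mouse and condition. Right, percent of the Id counts of each line that came from Id3, Id2 and Id1. The balance is lower in BCR-ABL1 than in EV lines of mouse 1 and higher in those of mouse 2, and Id2 takes its greatest share in EV 2A and 2B.

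Genes around the E proteins were described in lists chosen with earlier results of these data known. The first held 29 further helix-loop-helix factors and LMO and LDB cofactors, of which 11 were tested. Of these, 0 were called higher by edgeR and 1 lower (5.99% and 6.49% of all tested genes), with a median log2 fold change of 0.24. At an unadjusted p under 0.05 it was 2 higher and 1 lower, the likelihood ratio fit also called 2 higher, and DESeq2 called 0 higher. The called gene was Lmo4, a LIM-only cofactor of bHLH complexes, which fell in BCR-ABL1 lines (25.1 to 34.9 CPM, against 126 to 228 CPM in EV, log2 fold change -2.72, SE 0.15, FDR = 8.22e-07). Its partner Ldb1, the LIM domain-binding scaffold, had a log2 fold change of 0.24 (FDR = 1) and Lyl1, a tissue-restricted dimer partner of E proteins, one of 0.40 (FDR = 1). The fourth Id gene, Id4, was not tested.

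Among 7 repressors that bind E-boxes, 4 were tested and 0 were called by edgeR in either direction (5.99% higher and 6.49% lower of all tested genes). By DESeq2 and at an unadjusted p under 0.05 it was also 0. The most abundant was Zeb2, for which EV lines had 136 to 466 CPM and BCR-ABL1 lines 142 to 187 CPM (log2 fold change -0.79, SE 0.24, FDR = 0.295). Zeb1 had a log2 fold change of 0.35 (SE 0.19, FDR = 1). Zeb2 was called lower without EV 2C (log2 fold change -0.93, FDR = 0.0425) and in the lines of mouse 1 alone (-0.78, FDR = 0.00304), where 12.2% of all genes were lower. In mouse 2 alone, where 2.65% of all genes were lower, it was not called (-0.78, FDR = 0.658).

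Of 13 coregulators of E proteins and factors of Id protein turnover, 12 were tested and 0 were called by edgeR (5.99% higher and 6.49% lower of all tested genes). It was also 0 at an unadjusted p under 0.05 and 0 by DESeq2, and the median log2 fold change was -0.17. Usp1, the deubiquitinase that stabilizes Id proteins, had 278 to 335 CPM in BCR-ABL1 lines, all above the 167 to 264 CPM of EV lines, with a log2 fold change within 1.5-fold (0.37, SE 0.11, FDR = 1). The conditions did not overlap for 2 higher genes of this list, Usp1 with them, and for 2 lower ones (12.1% and 13.5% of all tested genes). Huwe1, a ubiquitin ligase, had a log2 fold change of 0.08 (FDR = 1).

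Signals upstream of Id genes were covered by 23 receptors, SMADs, ligands and EGR factors, of which 15 were tested. Of these, 2 were called higher and 1 lower, where 5.99% and 6.49% of all tested genes were, with a median log2 fold change of -0.01, whereas DESeq2 called 2 higher and 0 lower. With mouse as a replicate block 3 were higher and 2 lower (7.49% and 7.18% of all tested genes), as Acvr2a (log2 fold change 2.67, FDR = 0.0205) and Egr1 (-1.12, FDR = 0.0372) were also called, against FDRs of 0.0533 and 0.0511 without it. Bmpr2, the type II BMP receptor, rose to 7.31 to 10.7 CPM in BCR-ABL1 lines from no more than 4.33 CPM in EV (log2 fold change 2.58, SE 0.52, FDR = 0.0104), and in the lines of mouse 2 alone its FDR was 0.101. The other 2 genes called without the block were looked up after their values were seen. Acvr1, a type I BMP receptor, reached 0.767 CPM at most in EV and had 2.48 to 5.45 CPM in BCR-ABL1 lines (FDR = 0.00997), and Egr2 fell from 0.767 to 4.06 CPM to no more than 0.270 CPM (FDR = 0.00266). Acvr1 passed the filter on low counts through the BCR-ABL1 lines and Egr2 through the EV lines, where each is high. The calls of Acvr1 and Egr2 therefore cannot show a direction for the 15 genes. Tgfbr2, the type II TGF-beta receptor, had 80.1 to 99.4 CPM in BCR-ABL1 lines, below the 102 to 258 CPM of EV lines (log2 fold change -0.95, SE 0.20, FDR = 0.0673), with an FDR of 0.00708 without EV 2C, 0.00067 in mouse 1 alone and 0.283 in mouse 2 alone. Tgfb1 had a log2 fold change of -0.33 (FDR = 1).

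The type I receptor gene Bmpr1a, also looked up after its values were seen, was split by mouse. It was at 1.52 to 2.04 CPM in the EV lines of mouse 1 but at 42.3 to 91.8 CPM in those of mouse 2, while BCR-ABL1 lines had 47.8 to 66.2 CPM (interaction FDR = 1.69e-06). Smad1 and Smad9, which act below these receptors, were not tested and had at most 10 and 4 counts in any line, in EV 2A, whereas Smad5 was at 46.7 to 109.8 CPM. The ligand genes Bmp2 and Bmp4 had at most 6 and 4 counts.

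Among 24 genes known as E protein targets in B cell precursors, all were tested, 4 were called higher, 2 lower and 18 were not called, with a median log2 fold change of -0.09, against the 5.99% higher and 6.49% lower of all tested genes. With mouse as a replicate block 3 were higher and 3 lower (7.49% and 7.18% of all tested genes), as Dntt was lost and Gfi1 was called lower (log2 fold change -2.10, FDR = 0.00573, against 0.873 without the block). Cxcr4, the chemokine receptor that the study follows, fell from 217 ± 29.1 to 103 ± 14.2 CPM (SD, n = 6 each, log2 fold change -1.08, FDR = 0.00185). Il7r, the IL7 receptor chain, fell from 358 ± 60.9 to 172 ± 15.5 CPM (log2 fold change -1.06, FDR = 0.00328, and 0.108 in mouse 2 alone). Erg, an ETS factor, did not pass 0.358 CPM in any EV line, and BCR-ABL1 lines had 46.3 to 117 CPM (FDR = 2.27e-06). Erg had more than 3 counts in 7 lines and passed the filter on low counts through the BCR-ABL1 lines, where it is high. Its call therefore cannot show a direction for the 24 genes. Dntt, the terminal transferase of V(D)J recombination, spread from 31.6 to 179 CPM over BCR-ABL1 lines and stayed at or below 18.5 CPM in EV (log2 fold change 4.30, SE 1.25, FDR = 0.0396). With mouse as a replicate block its FDR was 0.0533. The log2 fold change of Dntt was 9.40 in mouse 1 alone (FDR = 1.02e-07) and 2.06 in mouse 2 alone (FDR = 0.454), and it was 6.16 without EV 2B (FDR = 0.00372). It was also called without EV 2C, BCR-ABL1 2B or BCR-ABL1 2C and not without any other single line (FDR up to 0.0798). Rasgrp1, a RAS activator, was at 0.0461 to 0.303 CPM in EV lines of mouse 1, 7.45 to 9.05 CPM in those of mouse 2, and BCR-ABL1 lines had 38.6 to 89.1 CPM (FDR = 0.0268, 0.0502 without BCR-ABL1 1C and 0.0729 with the line number as block). The fourth gene called higher was Bcl11a, which was named after its values were seen (log2 fold change 1.74, SE 0.31, FDR = 0.00503). The 2 most abundant genes not called were Pou2af1 (log2 fold change -0.08, FDR = 1) and Vpreb3 (-0.24, FDR = 1). The change of Ebf1, Pax5 and Foxo1, which act with E proteins, was -0.28, -0.10 and 0.10 (FDR = 1 for each).

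**Figure D5:**
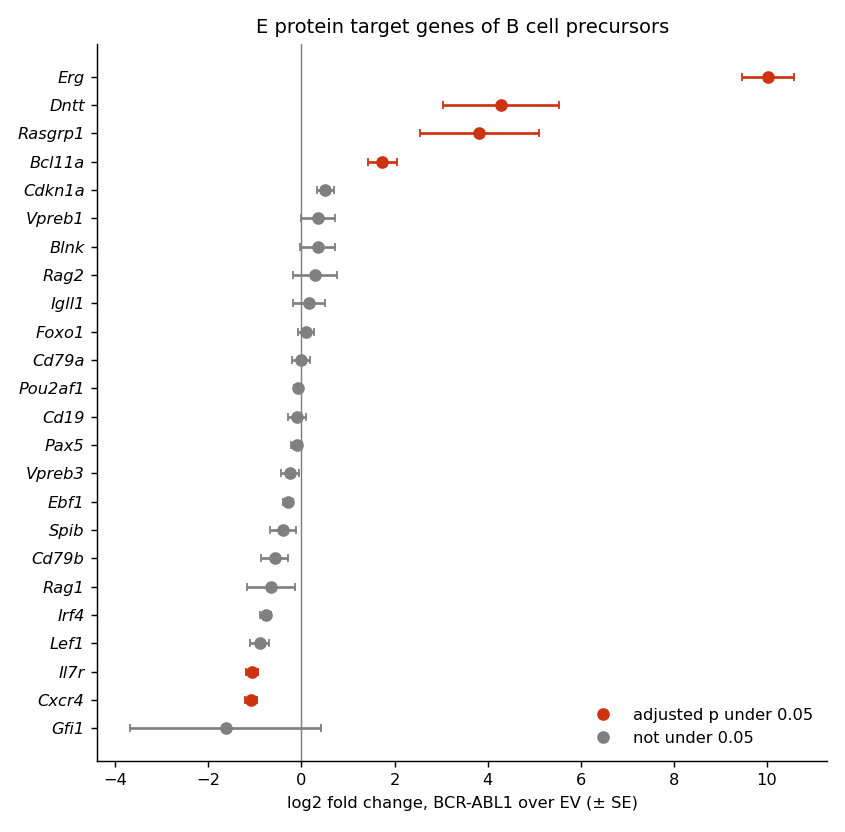
Log2 fold change of BCR-ABL1 over EV, with SE, for the 24 E protein target genes. Red points have an FDR under 0.05 against 1.5-fold. Of these, 4 lie to the right of 0 and Il7r and Cxcr4 to the left, and the fitted value of Erg depends on the prior count because EV lines are near 0.

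At least 1 RefSeq window of 250 bases with CANNTG was found for 20 of the 22 target genes with a window. It was found for 13 of 21 helix-loop-helix factors and cofactors, 3 of 4 repressors, 6 of 11 coregulators and turnover factors and 6 of 16 upstream signals, and, counted per gene in the same way, for 69.3% of 27025 genes.

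Genes of most similar pattern were found as the smallest root mean square difference of log2 CPM over the 12 lines, each gene centred on its own mean. Nearest to Tcf3 were Zfand3 (0.0715), Phc2 (0.0719) and Dcaf8 (0.0720). Nearest to Tcf12 were Mllt10 (0.0416), Phf3 (0.0448) and Rab3gap1 (0.0460), and nearest to Tcf4 were Zcchc2 (0.121), Fth1 (0.122) and Elk3 (0.123). For Id3 they were Cstb (0.0968), Cox14 (0.111) and Serf2 (0.114), and for Id2 they were Cdk5r1 (0.259), Marcks (0.286) and Zdhhc14 (0.287). For Id1 they were Zfp442 (0.355), Fosb (0.443) and Rassf3 (0.478).

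Markers of other cells that may carry Id or E protein transcripts were near 0 for most lists, but not for the T and NK list. Summed over 11 myeloid markers, EV lines had 0.144 to 1.56 CPM and BCR-ABL1 lines 1.37 to 4.24 CPM, with 6 and 7 of them at 3 counts or fewer in every line of the condition and Cd14, Elane and Ctsg at no more than 1 count. The 1 myeloid marker tested, Fcgr3, was called higher (FDR = 0.000719), where 5.99% of all tested genes were. No EV line passed 0.337 CPM for it, while its BCR-ABL1 values lay between 1.14 and 3.68 CPM, and 7 lines had more than 3 counts. Fcgr3 passed the filter on low counts through the BCR-ABL1 lines, where it is high. Its call therefore cannot show a direction for the 11 myeloid markers. Over 12 T and NK markers, EV lines had 72.3 to 146 CPM and BCR-ABL1 lines 67.5 to 128 CPM, nearly all from Lck (61.4 to 123 CPM over all lines) and Trac, while Cd3e had at most 4 counts, and Trac was called lower (FDR = 3.7e-05). Mast and basophil, erythroid and stromal markers, 6 each, summed to no more than 1.69 CPM in any line. The part of other cell types in the values of Id1, Id2 and Tcf4 was not tested.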

How the data were processed

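Whole-number counts per gene of the 12 lines were deposited by the authors without normalization or pooling. Their processing notes name FastQC 0.11.5, Trimmomatic 0.36, TopHat2 2.1.1, Bowtie2 2.3.2, featureCounts 1.5.3, R 3.6.1, edgeR 3.18.1 and GRCm38. Whether reads or pairs were counted, and the strand setting, are not given in the sources used here. Libraries were stranded total RNA.

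GENCODE M21 gave symbols for 51633 of 51826 identifiers. Genes were filtered with filterByExpr, TMM scaled and tested with edgeR 4.0.16 (glmTreat against 1.5-fold on the quasi-likelihood fit, FDR threshold 0.05) in R 4.3.3, after tests on simulated counts. DESeq2 1.42.0 was an alternative. SE were computed on log2 CPM (prior count 2). Counts of 3 or fewer were treated as background. Python 3.11.15 and matplotlib 3.10.9 made the plots. Promoter windows are from RefSeq.

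The members and lists were chosen with earlier results of these data known. From each list the text names up to 3 called genes with the largest rise, 3 with the largest fall (average log2 CPM of at least 1) and the 2 most abundant genes not called. Acvr2a, Egr1 and Gfi1 were named after their values were seen. Ebf1, Pax5, Foxo1, Id4, Smad1, Smad5, Smad9, Bmp2 and Bmp4 were also named outside this rule. Interaction alternatives and APPRIS lengths were added after seeing the data. EV and BCR-ABL1 lines share their mouse by the labels. Their deviations from the condition means correlated at 0.0853 to 0.240 within a mouse and at -0.203 to -0.0636 between mice. Such deviations offset each other within a condition, so the values between mice follow from those within a mouse and are no separate evidence. By the labels, mouse pairs the lines. No 2 lines of a mouse and condition were alike within sampling noise (chi-square per gene 9.36 to 434). The highest values were those of EV 2C, 434 with EV 2B and 270 with EV 2A, against 60.3 between EV 2A and EV 2B.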

Additional observations from a re-analysis of the deposited data

Results flagged for a closer look

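By edgeR's interaction test, 3 of the 6 genes changed differently in the 2 mice, as did 16.9% of all tested genes, and the call of Tcf4 was made in only 7 of 15 repeats. Mouse 2 minus mouse 1, the log2 change was -1.01 for Tcf4, -1.42 for Id2 and -0.885 for Id3. The log2 balance of E protein to Id counts differed in the same way by 0.676, since all BCR-ABL1 lines lay below the EV lines in mouse 1 and above them in mouse 2. This difference was not tested.

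Among the 17 other named genes, the change differed between the mice for Bmpr2 (-2.0), Erg (-4.01), Dntt (-7.35) and Rasgrp1 (-6.29).

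A line lay apart from the other 5 of its condition in 5 of 48 groups tested. Chance gives about 1 in 20 for independent lines and genes. Lines of 1 mouse share their marrow and EV 2C recurs below, so that rate need not hold here. The gap to the nearest line over the whole range was 0.793 for Tcf4 in BCR-ABL1 2A, the lowest. It was 0.682 for Zeb1 in EV 2C and 0.770 for Huwe1 in EV 1B, both the highest. It was 0.791 for Cxcr4 and 0.861 for Il7r in EV 2C, both the lowest.

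Id4, which did not pass the filter, had 8 counts in EV 2A and 0 in the 11 other lines. EV 2A is the line with 5033 genes seen in no other line.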

How the results depend on the processing

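Id1 kept its direction in all 21 alternatives in which it was tested (log2 fold change 1.86 to 3.11, FDR 5.22e-05 to 0.0616). Leaving out 1 line gave 1.99 to 2.50, and 0 to 1 members called higher, as given above for the 5 lines concerned. With a CPM of at least 1 in 6 lines 0 members were higher. Tcf3 (-0.32) and Tcf12 (-0.15) passed the test against no change, which called 2 members lower. In mouse 1 alone the direction turned for Tcf4 (0.30), Id2 (0.16), Id3 (0.12) and Vpreb3 (0.19). With mouse as the replicate block Id1 had 2.41 and Dntt 5.10, the latter no longer called (FDR = 0.0533), and no call of a member changed. With the line number as block Id1 had an FDR of 0.0074, and Dntt (0.0549) and Rasgrp1 (0.0729) were no longer called.

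Of all tested genes, 3389 were higher and 3897 lower against no change, and 2512 and 1877 in mouse 1 alone, while 408 were lower in mouse 2 alone. Leaving out 1 line gave 807 to 1353 higher and 802 to 1434 lower, with 1353 higher without EV 2C. Of the 66 list genes tested, 15 were higher and 18 lower against no change, close to the 22.5% and 25.9% of all genes. They were 16 and 9 in mouse 1 alone (16.3% and 12.2% of all genes), and in mouse 2 alone 5 of 65 were higher and 2 lower (3.99% and 2.65%). With mouse as the replicate block 6 list genes were lower in place of 4. Members that differed between the mice were 2 to 5 when 1 line was left out. The difference in log2 balance was -0.71 as a difference of mean log2 CPM, which weights Id1 like Id3, -0.25 in mouse 1 and 0.43 in mouse 2. The cause was not tested. Id1 had 4 to 44 counts in EV lines, and the SE of its log2 change was 0.56 over all lines, 0.39 in mouse 1 and 0.15 in mouse 2.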
